A study of Mus musculus with 2 samples.

Results

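The Krt12-high resting epithelium of the uninjured mouse cornea comprised 1937 cells, 25.9% of the 7490 barcodes of the uninjured library (95% exact Clopper-Pearson interval 24.9 to 26.9) and part of the 16889 barcodes of the 2 libraries of the study. The study profiled single cells of cornea with limbus, its border to the conjunctiva, with droplet-based 10x Genomics libraries, and it asks which signalling networks an alkali burn engages. The uninjured library, which holds these cells, came from 1 wild-type mouse without injury (treatment labelled control), and the injured library from 1 wild-type mouse burned with sodium hydroxide (NaOH). Before digestion with liberase and trypsin the inner eye tissues and much of the conjunctiva were cut away; the sources used here do not give the age of the mice or the time after the burn. Each condition is 1 library of 1 mouse, so no difference below has a replicate check or a p-value. Levels are CPM, a gene's UMIs (molecule tags that count captured transcripts) scaled to 1000000 UMIs of the group of cells, and they are not divided by gene length. Intervals are 95% exact Poisson intervals for levels, conditional binomial intervals for ratios and Clopper-Pearson intervals for shares, and they cover counting error only.

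Measured values chose these cells. A cell had at least 2000 UMIs, at most 20% mitochondrial UMIs, Krt5 plus Krt14 of at least 3000 CPM and Krt12 of at least 5000 CPM. It also had Nppb plus Mmp10 plus Mmp13 under 300 CPM, Ly6g6c plus Clic3 plus Dsg1a under 500 CPM, Gpha2 under 1000 CPM and fewer than 4 of 8 cell cycle genes detected (Mki67, Top2a, Ube2c, Cenpf, Birc5, Cdk1, Ccnb1 and Ccnb2). Of 5559 uninjured cells with the keratins Krt5 and Krt14 at the minimum, 5219 (93.9%, 93.2 to 94.5) also reached the Krt12 minimum, and 1937 of those (37.1%, 35.8 to 38.4) met the remaining limits. Among the rest of these 5219 cells, 1281 failed the Nppb set alone, 822 the Ly6g6c set alone, 37 the Gpha2 limit alone, 633 the cell cycle limit alone and 509 failed more than 1. Everything below describes cells picked from the same measurements, so the values are descriptions and not tests.

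The corneal epithelium is a stratified layer whose basal cells sit on a basement membrane through hemidesmosomes, divide, and give rise to wing cells and flat superficial cells joined by tight junctions. Its cells make Krt12, the type I keratin of the corneal type of differentiation, which pairs with Krt5 in the mouse. They also fill their cytoplasm with a few enzymes called corneal crystallins, among them Aldh3a1, an aldehyde dehydrogenase, and Tkt, the transketolase of the pentose phosphate pathway, which are known for a part in transparency and in protection from ultraviolet light. Slurp1 is a secreted Ly6-family protein of the ocular surface. New cells come from the limbus, where the glycoprotein hormone subunit gene Gpha2 marks stem and progenitor cells.

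The promoters of Krt12 and Tkt are shown because these genes name the population and code for a keratin and a crystallin that fill the same cells. Both windows run from 250 bases before to 50 bases after the gene start in RefSeq on GRCm38.p6. The Krt12 window is chr11:99422210-99422509 on the minus strand and ends in the first bases of the gene, which GENCODE places at chromosome 11, 99415666 to 99422259. The Tkt window is chr14:30548881-30549180 on the plus strand and lies inside the span that GENCODE gives the gene, chromosome 14, 30548359 to 30574720. Capitals mark CACCC on either strand, the core letters bound by Krüppel-like factors, and TATAA on the plus strand of the gene.
Krt12: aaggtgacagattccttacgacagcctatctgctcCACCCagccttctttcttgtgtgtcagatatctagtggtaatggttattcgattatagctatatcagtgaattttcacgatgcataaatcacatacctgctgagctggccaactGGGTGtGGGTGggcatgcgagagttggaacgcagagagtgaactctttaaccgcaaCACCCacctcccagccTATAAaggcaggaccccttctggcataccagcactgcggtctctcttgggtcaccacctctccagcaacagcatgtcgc
Tkt: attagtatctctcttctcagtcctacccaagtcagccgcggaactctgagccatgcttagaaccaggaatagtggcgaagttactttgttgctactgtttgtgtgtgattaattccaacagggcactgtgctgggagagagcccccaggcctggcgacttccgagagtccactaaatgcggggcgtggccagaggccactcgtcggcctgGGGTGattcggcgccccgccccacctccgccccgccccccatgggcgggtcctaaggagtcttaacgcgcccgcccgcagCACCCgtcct
The Krt12 window held 4 CACCC matches and 1 TATAA match, and the Tkt window 2 CACCC matches and no TATAA match. Of 32851 windows of this length, 57.5% held CACCC, with a mean of 0.973 matches, and 17.5% held TATAA. The letters bound by AP-1 factors such as Fos and Jun, TGANTCA on either strand, matched in neither window and in 7.81% of all windows. No motif overlapped another in the 2 windows, and a match describes letters, not a binding site.

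The markers that name the population were present in nearly every cell. Besides Krt12 (ENSMUSG00000020912) and Tkt (ENSMUSG00000021957), placed above, they are Aldh3a1 (ENSMUSG00000019102; chromosome 11, 61207537 to 61218421, plus strand) and Slurp1 (ENSMUSG00000022596; chromosome 15, 74724318 to 74728034, minus strand) on GRCm38. Krt12, which the selection used, ran from 5090 to 55726 CPM per cell with a median of 17563. Aldh3a1, outside the selection, had a median of 12449 CPM per cell and was detected in all 1937 cells, the lowest at 927 CPM. Tkt had a median of 5371 CPM and was also detected in all cells. Slurp1 had a median of 4354 CPM, with no UMI in 7 cells, and its Ly6-family neighbour on chromosome 15, Lypd2, a median of 4932 CPM with no UMI in 2 cells. Free RNA in droplets adds to such counts. In 397 stromal cells of the same library (Dcn plus Lum at least 5000 CPM, Krt5 plus Krt14 under 1000 CPM), which do not make Krt12, the median Krt12 level was 920.0 CPM and 100% of cells had a UMI, at a median depth of 10569 UMIs in the Krt12-high resting cells against 6053 in the stromal cells. Slurp1 had a median of 172 CPM in those stromal cells and Lypd2 284 CPM. Aldh3a1 stood higher there, at a median of 3467 CPM, and Tkt at 1340 CPM; both are also known crystallins of the corneal stroma, and how much of these levels is free RNA was not tested.

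**Figure D1:**
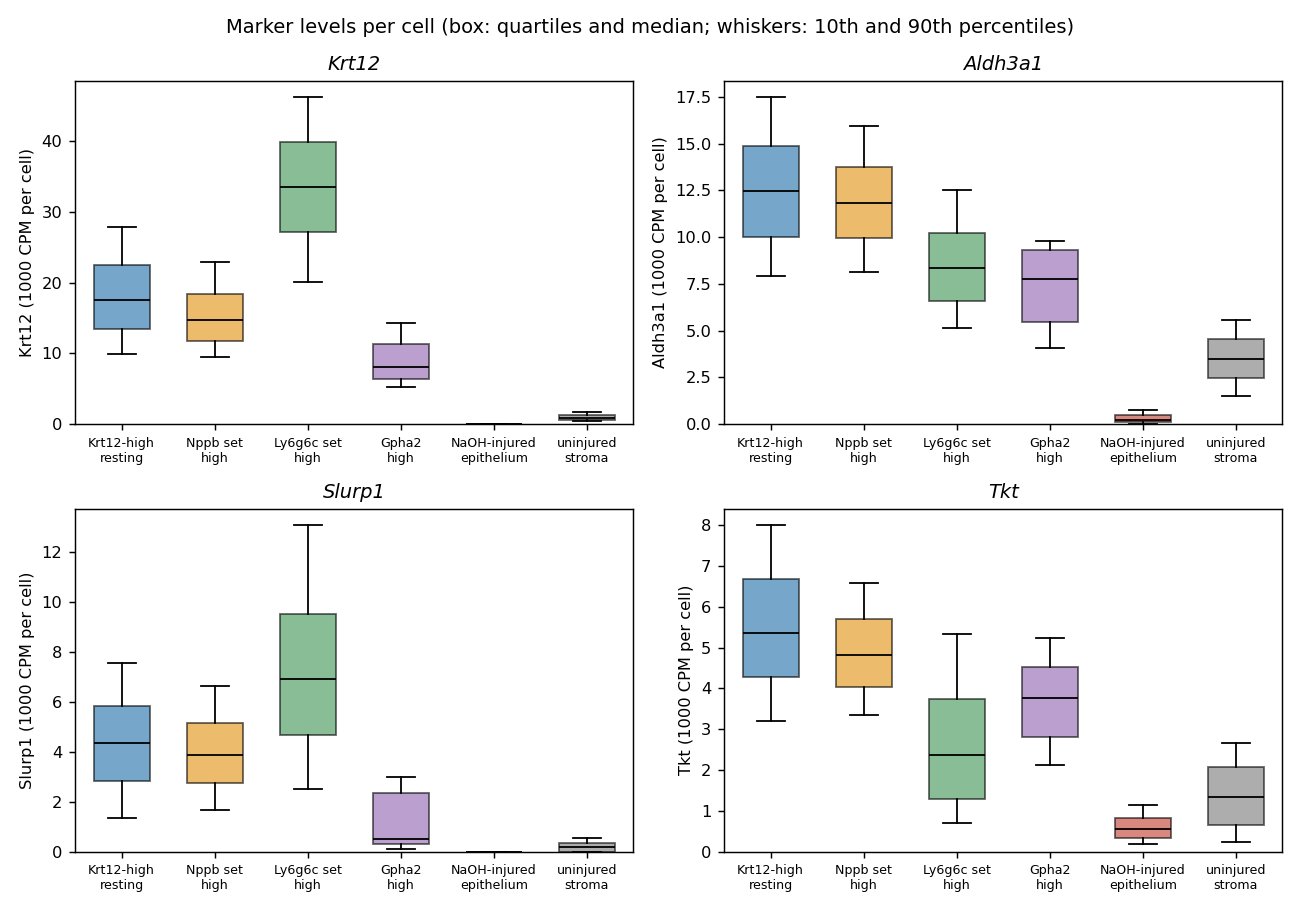
Levels per cell of Krt12, Aldh3a1, Slurp1 and Tkt, in CPM divided by 1000, in 6 groups of cells from left to right, with boxes for quartiles and median and whiskers for the 10th and 90th percentiles. The Krt12-high resting cells had a Krt12 median of 17563 CPM, below the 33554 CPM of the Ly6g6c-set-high cells, while their Tkt median of 5371 CPM was above the 2361 CPM of those cells.

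The Krt12-high resting cells did not hold the highest Krt12 in the tissue. Pooled over the cells, Krt12 stood at 18654 CPM, against 32589 CPM in the 822 cells that failed the Ly6g6c set alone, 15621 CPM in the 1281 cells that failed the Nppb set alone and 9385 CPM in the 37 cells over the Gpha2 limit alone. Per cell, the middle ranges were apart from the Ly6g6c-set-high cells, with a 75th percentile of 22466 CPM in the Krt12-high resting cells against a 25th percentile of 27196 CPM in the other. Aldh3a1 had the opposite order, 12364 CPM against 8360 CPM in the Ly6g6c-set-high cells, as did Tkt, 5452 against 2766 CPM, whereas Slurp1, at 4332 against 7048 CPM, followed Krt12. The word high in the name follows from the Krt12 minimum, which was not applied to the injured epithelium or the stroma. It does not mean the highest level within the uninjured epithelium.

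No injured epithelial cell reached the Krt12 minimum. Among 6275 NaOH-injured cells with Krt5 plus Krt14 at the minimum, the count was 0, which allows a share of up to 0.0478%; the highest value was 3063 CPM and 5636 of the cells (89.8%) had no Krt12 UMI. Within the uninjured library the edges of the selection were not gaps. The cells nearest the Krt12 limit had 5090 CPM inside and 4983 CPM outside, with 9 cells inside and 11 outside within 10% of it. At the Nppb limit the nearest cells had 299.9 and 300.1 CPM, with 73 cells inside and 64 outside within 10%, and at the Ly6g6c limit 499 and 501 CPM, with 58 inside and 42 outside. At the Gpha2 limit the nearest cells had 960 and 1015 CPM, and 8 cells inside and 4 outside lay within 10%.

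The 20 genes with the most UMIs, leaving out mitochondrial and ribosomal protein genes, held Krt12 with 1.87% of all UMIs, its partner Krt5 (5374 CPM), Aldh3a1, Tkt, Slurp1, Lypd2 and Mgarp, a mitochondrial protein gene (3483 CPM). The actin-binding peptide gene Tmsb4x stood at 14853 CPM, the calcium-binding S100a6 at 13309 CPM, the epithelial 14-3-3 gene Sfn at 5802 CPM, the metallothionein Mt1 at 4836 CPM and the glutathione transferase Gsta4, which clears lipid aldehydes, at 4252 CPM. The others were Malat1, Tpt1, Gm42418, Eef1a1, Fau, Actb, Ppia and Actg1. Mgarp did not separate the population from the stroma, since its pooled level was 3483 CPM in the Krt12-high resting cells and 3045 CPM in the uninjured stromal cells, and the same held for the rarer Fam169a, at 125 and 115 CPM.

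Part of the Krt12-high resting cells held RNA of several genes of DNA replication. The selection used 8 genes of mitosis and G2 phase; a list of 20 S-phase genes (Pcna, the Mcm helicase genes, Rrm1, Rrm2, Tyms and others), chosen after the data were seen, was then counted. Of the Krt12-high resting cells, 661 (34.1%) held at least 4 of the 20, a share that depends on depth. After every cell was thinned to 5000 UMIs, which left out 88 of the 1937 cells, the share was 17.2% in the Krt12-high resting cells, 17.1% in the Nppb-set-high cells and 1.72% in the Ly6g6c-set-high cells. The 633 cells over the cell cycle limit had 44.4%, the NaOH-injured epithelium 21.8% and the stromal cells, as a background for free RNA, 3.02%. The summed level of the 20 genes was 1117 CPM in the cells over the cell cycle limit and 565 CPM in the NaOH-injured epithelium. It was 195 CPM in the Ly6g6c-set-high cells, 288 CPM in the stroma and 540 CPM in the Krt12-high resting cells. Tyms, the thymidylate synthase, stood at 23.1 against 101 CPM in the cells over the limit, and Rrm2, a ribonucleotide reductase subunit, at 14.2 against 74.97 CPM. The name resting therefore covers the 8 selecting genes, and is kept here as a label.

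Markers of other cell types were low, with an exception for the stroma. The 7 stromal markers summed to 260 CPM in the Krt12-high resting cells (5 of 7 at 10 CPM or more), against 77840 CPM in the stromal cells. The sum was 112, 234 and 48.9 CPM in the Nppb-set-high, Ly6g6c-set-high and Gpha2-high cells. In the Krt12-high resting cells 80.4% of the UMIs of Dcn, which encodes the matrix protein decorin, came from 11 cells with Dcn plus Lum of at least 1000 CPM. Of these 11, 10 were among the 127 Krt12-high resting cells with the highest doublet scores. No Dcn or Lum UMI was found in 1282 cells. The Schwann cell markers summed to 44.1 CPM, with Mbp at 42.0 CPM, and the mural cell markers to 42.0 CPM, with Notch3 at 34.8 CPM. The vascular endothelial markers summed to 2.03 CPM, the macrophage markers to 7.47 CPM with Adgre1 at 0, the neutrophil markers to 19.0 CPM with Cxcr2, Csf3r and Retnlg at 0, and the T or NK cell markers to 0.225 CPM with Cd3e, Cd3d, Nkg7 and Trdc at 0. The 5 dendritic or MHC class II markers summed to 13.1 CPM, above the 1.73, 1.40 and 2.22 CPM of the Nppb-set-high, Ly6g6c-set-high and Gpha2-high cells. The source of this RNA was not tested. The keratins of conjunctival epithelium (Krt4, Krt7, Krt8, Krt18 and Krt19) summed to 50.7 CPM, against 233 CPM in the Ly6g6c-set-high cells and 2190 CPM in the NaOH-injured epithelium. In the uninjured epithelium under the Krt12 minimum they summed to 1300 CPM. The libraries shared 15 cell barcodes, of which 3 belonged to Krt12-high resting cells.

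Inside the population the cells spread along Krt12. In 1849 cells thinned to 5000 UMIs, with 1163 genes of at least 100 CPM, Krt12 had its highest Pearson correlations with Gsta4 (r = 0.67), the water channel Aqp5 (0.63), Krt5 (0.60), Lypd2 (0.55), the calmodulin-like Calml3 (0.55), Mgarp (0.52), Dapl1 (0.51), Gsta2 (0.44), Slurp1 (0.44) and the retinol-binding Rbp2 (0.41). The lowest were Krt14 (-0.39), the ferritin light chain Ftl1 (-0.37), the apolipoprotein Apoe (-0.35), Tpt1 (-0.34), Phlda1 (-0.33), Wfdc2 (-0.29), the taurine transporter Slc6a6 (-0.29), Lgals7 (-0.29), the early response gene Ier3 (-0.28) and Ifitm3 (-0.28). The cells share 1 library and each value is a share of the same 5000 UMIs, so these are descriptions. Among all 675703 pairs of those genes the median r was 0.00, the 99th percentile 0.15 and 153 pairs reached 0.4. Depth and mitochondrial share moved little with Krt12, with r of 0.05 and -0.01.

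Across quartiles of Krt12, from the lowest to the highest, Gsta4 stood at 2255, 2895, 4019 and 7050 CPM and Calml3 at 507, 597, 918 and 1713 CPM. Aqp5, through which water crosses the apical epithelium, stood at 943, 1388, 1898 and 3081 CPM. Krt5 climbed from bin to bin, at 3938, 4551, 5348 and 7132 CPM, while Krt14, its usual partner in basal cells of other epithelia, went the other way, at 4180, 3224, 2592 and 1775 CPM. Apoe stood at 560, 219, 150.2 and 85.3 CPM, and Ifitm3, an interferon-induced membrane protein, at 307, 180.1, 132 and 86.1 CPM. The crystallins did not follow this slope to the end. Aldh3a1 stood at 11179, 12867, 13367 and 13124 CPM and Tkt at 4699, 5555, 5973 and 5984 CPM, and the correlations with Krt12 were 0.17 and 0.21, whereas Aldh3a1 and Tkt had r = 0.54 with each other. Pax6, a master transcription factor of the eye, stood at 149.9, 162, 197 and 223 CPM, and Fos at 2711, 3162, 3132 and 2681 CPM with no slope. The Ly6g6c-set-high cells, which the selection left out, lay beyond the highest bin for several of these genes. Their medians per cell were 13418 CPM for Gsta4, 3984 for Calml3, 5812 for Aqp5, 9056 for Krt5 and 400 for Krt14. Their medians for Aldh3a1 and Tkt, 8360 and 2361 CPM, were below every bin.

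**Figure D2:**
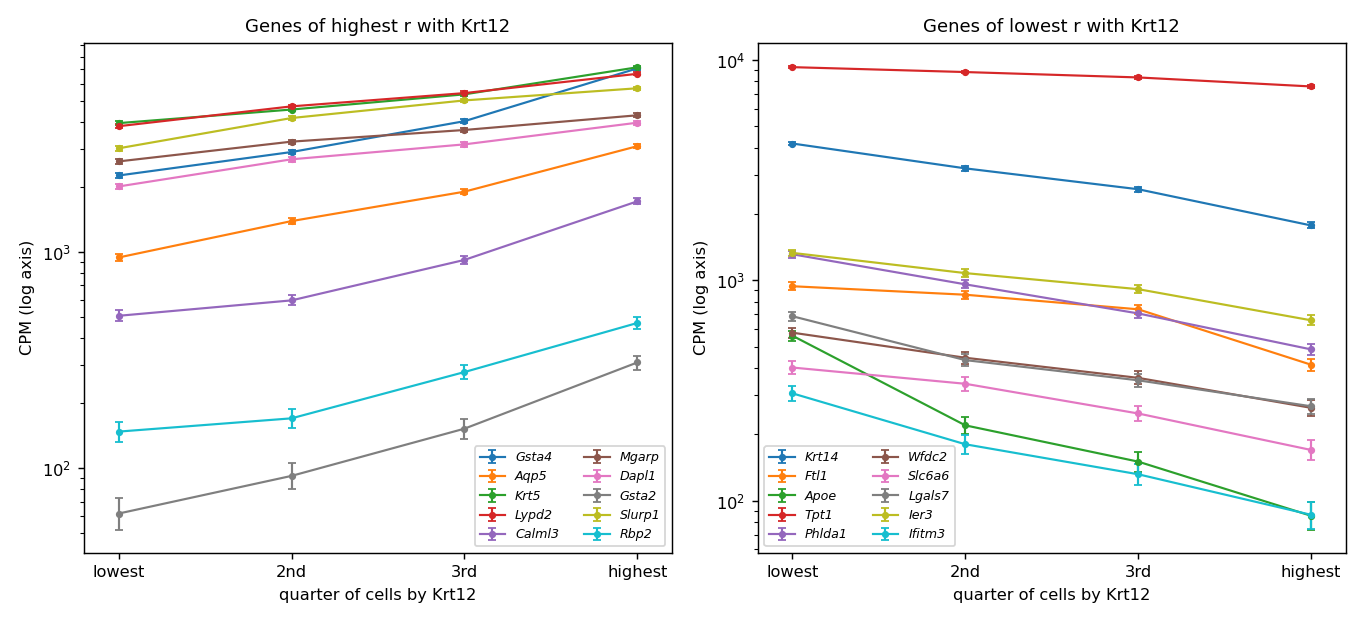
Levels in 4 bins of Krt12-high resting cells ordered by Krt12, in CPM on a log axis, of the 10 genes with the highest (left) and the 10 with the lowest (right) correlation with Krt12; points are pooled levels of 462 or 463 thinned cells and bars 95% Poisson intervals. The bins were made from Krt12 and the genes picked by their correlation with it, so the slopes describe and do not test; Gsta4 spans 2255 to 7050 CPM and Krt14 4180 to 1775 CPM.

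A second spread followed basal adhesion genes. Cells were binned by the summed count of a list of basal layer and hemidesmosome genes without Krt15. From the lowest to the highest bin, genes outside that list moved as follows. Malat1, a nuclear noncoding RNA, stood at 7157, 9280, 11422 and 13984 CPM. Calml3 stood at 1558, 901, 702 and 571 CPM, the tight junction claudin Cldn4 at 504, 320, 314 and 239.8 CPM, the cornified envelope precursor Sprr1a at 434, 154, 129 and 92.6 CPM, and Gsta4 at 6326, 3952, 3185 and 2748 CPM. Krt12 itself changed less, at 21632, 18230, 17135 and 16822 CPM, and Aldh3a1 stood at 11434, 12509, 12939 and 13655 CPM. Cells with less basal adhesion RNA thus had more Calml3, Cldn4 and Sprr1a RNA, within a population from which the cells richest in Ly6g6c, Clic3 and Dsg1a had been taken out. The lowest bin also held most Krt15, at 1270, 347, 350 and 304 CPM, and most Krt6a, at 848, 371, 326 and 270 CPM. The part of Krt15-rich cells in these slopes was not tested. The bins were split at 10, 14 and 18 UMIs of the list, so counting error mixes neighbouring bins. Median depth ranged from 10514 to 10806 UMIs over the 4 bins. The median mitochondrial share climbed over the same bins, at 1.95%, 2.04%, 2.26% and 2.34%, and its part in these slopes was not tested.

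A few genes were concentrated in small numbers of cells. Overdispersion, the variance beyond counting divided by the squared mean, had a median of 0.104 over 2223 genes of at least 50 CPM; Krt12 had 0.141, Slurp1 0.257, Tkt 0.099 and Aldh3a1 0.084. The 15 highest were Dcn (114), the growth factor binding protein Igfbp2 (58.5), the matrix protein gene Sparc (38.1), Ifitm1 (15.7), the protease Asprv1 (15.1), Krt15 (13.2), the wound keratin Krt17 (12.9), the EGF receptor ligand Areg (10.8), the histone gene Hist1h2ap (10.7), Sprr1a (8.03), Krt6b, the ligand Epgn, the chemokine Cxcl1, the BMP target Id1 and C2cd4b. For Dcn, 84.5% of UMIs lay in the top 5% of cells, for Areg 62.9% and for Id1 47.7%.

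**Figure D3:**
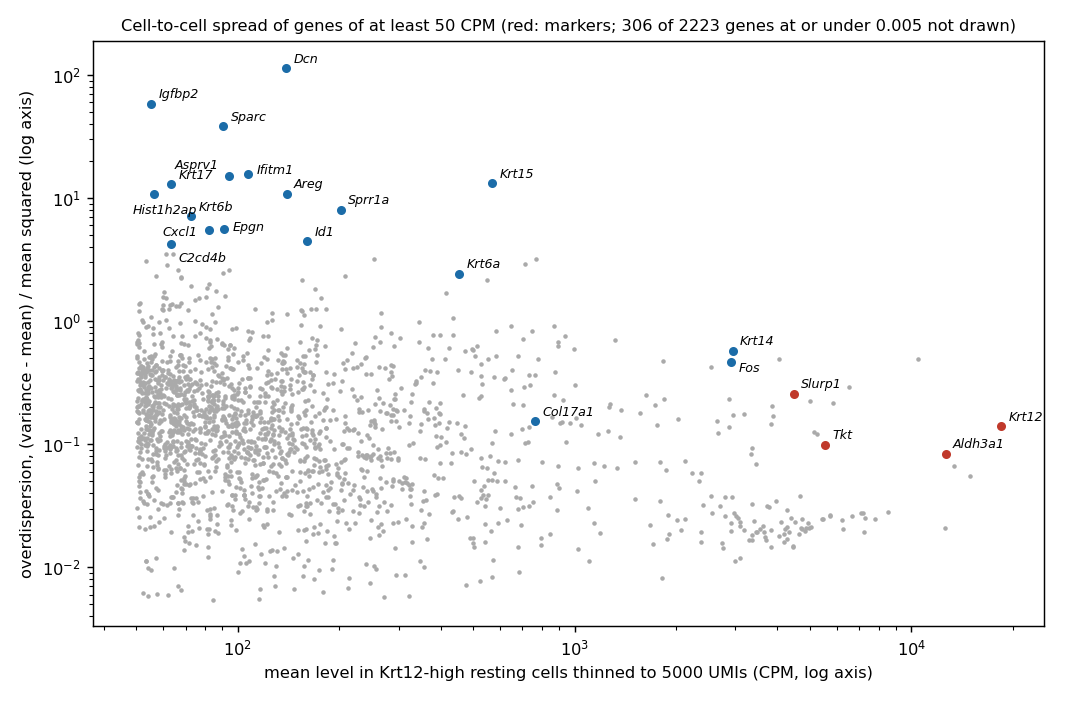
Overdispersion across 1849 thinned Krt12-high resting cells against mean level in CPM, both on log axes, for 1917 of 2223 genes of at least 50 CPM (306 genes at or under 0.005 are not drawn). The naming markers, in red, lie between 0.084 and 0.257, and Dcn, Igfbp2, Sparc and Krt15 lie above 10.

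Krt15, a keratin of basal and limbal cells, was carried by a small subset. The median cell had 87.3 CPM and 1609 cells had under 500 CPM, while 53 cells with at least 5000 CPM held 61.2% of the Krt15 UMIs and the highest cell had 25109 CPM. This limit was set after the values were seen, and 9 cells lay within 10% of it. In the 53 cells Ifitm1 stood at 1429 CPM against 72.2 CPM in the other 1884, the cystatin gene Cstdc5 at 5446 against 658 CPM, and Krt6a, a keratin of suprabasal and stressed epithelium, at 3241 against 444 CPM. The mucosal keratins Krt4 and Krt13 stood at 415 against 5.63 CPM and at 509 against 36.2 CPM, and Krt19 at 164 against 2.07 CPM. The hemidesmosome genes Col17a1 and Itgb4 were lower there, at 304 against 797 CPM and at 54.6 against 172 CPM, and so were Aldh3a1 (6434 against 12619 CPM), Tkt (2301 against 5588 CPM) and Slurp1 (1380 against 4459 CPM). The basal keratin Krt14 stood at 3370 against 2939 CPM. Krt15 thus did not travel with basal adhesion genes in these cells: its r with Col17a1 was -0.19. Its r was 0.71 with Ifitm1 and 0.50 with Krt6a, but the rank correlations were 0.27 and 0.11, so both values of r rest largely on few cells. The 53 cells had a median of 239 CPM of the Ly6g6c set against 108 CPM, 12694 against 10547 UMIs, and 5 of them (9.43%) against 122 (6.48%) were among the highest doublet scores; the part of these in the result was not tested.

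Against the Ly6g6c-set-high cells, which met every other limit, the Krt12-high resting cells had more RNA of basal genes and less of surface genes. Ly6g6c, Clic3 and the desmosomal cadherin Dsg1a themselves were used to split them. Of 7050 genes of at least 10 CPM in either group, 578 (8.2%) were at least 2-fold higher and 654 (9.28%) at least 2-fold lower in the Krt12-high resting cells, with a median log2 ratio of 0.07 over all of them. Of 16 measured basal layer and hemidesmosome genes 11 were at least 2-fold higher and 1 lower, with a median log2 ratio of 1.53. Of 16 suprabasal and cornified envelope genes none was higher and 10 were lower (median -1.64), as were 6 of 8 surface mucin and glycocalyx genes (median -2.06), 7 of 11 tight junction genes (median -1.20) and 7 of 16 desmosome and adherens junction genes (median -0.76).

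The genes of attachment to the basement membrane were among the higher ones. Itgb4, the hemidesmosome integrin chain, stood at 168 CPM in the Krt12-high resting cells against 25.4 CPM in the Ly6g6c-set-high cells, 6.60-fold (5.92 to 7.37), and Itgb1 at 157 against 24.6 CPM, 6.39-fold (5.72 to 7.15). The laminin chain gene Lamb3 was 7.68-fold higher (5.86 to 10.3) at 30.7 against 4.001 CPM, and Col17a1, a transmembrane collagen, 3.11-fold higher at 777 against 250 CPM. The cell cycle entry gene Ccnd2 stood at 115 against 22.7 CPM. Signalling genes went in both directions. The ligand genes Wnt10a (65.2 against 8.001 CPM), Nrg1 (132 against 21.6 CPM), Jag2 (39.0 against 6.25 CPM) and Dll1 (70.0 against 16.8 CPM), which act in the Wnt, ErbB and Notch pathways, were 8.14-fold, 6.10-fold, 6.25-fold and 4.16-fold higher. Of 7 Wnt genes 2 were higher (Wnt10a and the antagonist Sfrp1) and none lower, and of 8 Notch genes 2 were higher (Jag2 and Dll1) and 1 lower (Nrarp). Of 12 EGF receptor ligand and receptor genes 1 was higher (Nrg1) and 2 were lower (the ligands Ereg and Btc), with a median log2 ratio of -0.34. Phgdh, the first enzyme of serine synthesis, was 7.26-fold higher (6.57 to 8.03) at 218 against 29.97 CPM. Cpe, Ftl1, Wfdc2, Antxr1 and Slc6a6 were 4.89-fold to 6.77-fold higher.

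Among the lower genes were those of a differentiated surface. The Ly6-family gene Psca stood at 33.2 CPM in the Krt12-high resting cells against 1501 CPM in the Ly6g6c-set-high cells, 45.3-fold lower (42.1 to 48.8). The membrane mucin Muc4 was 30.9-fold lower at 15.4 against 475 CPM, the filaggrin-processing protease Asprv1 31.5-fold lower at 97.4 against 3070 CPM, and Krt13 and Krt6b 29.7-fold and 24.0-fold lower. Cldn3 was 12.5-fold lower at 8.37 against 104 CPM, and the plakin genes Ppl and Evpl of the cornified envelope 4.67-fold and 5.00-fold lower. Nccrp1, Hopx, Cysrt1 and Prss27 were 21.4-fold to 42.3-fold lower. Of 22 corneal transcription factor genes 3 were higher (Id3, Nfib and Sox15) and 4 lower (Elf3, Grhl1, Grhl3 and Ovol1), with a median log2 ratio of -0.16. Elf3 and Grhl1 were 2.96-fold and 5.66-fold lower, at 127 against 377 CPM and 11.7 against 66.3 CPM. Krt15 was lower as well, at 722 against 4060 CPM.

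Metabolic and stress genes went in both directions. Gsto1, a glutathione transferase of the omega class, stood at 1404 CPM in the Krt12-high resting cells against 9249 CPM in the Ly6g6c-set-high cells, and Gsta4 at 4252 against 13436 CPM. Ftl1 ran the other way, at 705 against 119 CPM, as did Mt2 (2538 against 1155 CPM). In the antioxidant and glutathione list 5 of 27 genes were at least 2-fold higher and 3 lower. Of 12 heat shock genes 5 were higher and none lower, among them Hspa8 at 1045 against 421 CPM and Hsp90ab1 at 2502 against 1151 CPM. Of 13 glycolysis genes, 7 pentose phosphate genes and 10 clock genes none passed 2-fold in either direction; Tkt, the crystallin, was 1.97-fold higher. The gap junction gene Gja1 stood at 311 against 87.5 CPM, and the glucose transporter Slc2a1 at 66.1 against 29.4 CPM. In the TGF-beta and BMP list 5 of 11 genes were higher (Tgfb1, Tgfbr2, Fst, Smad7 and Id3) and none lower.

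**Figure D4:**
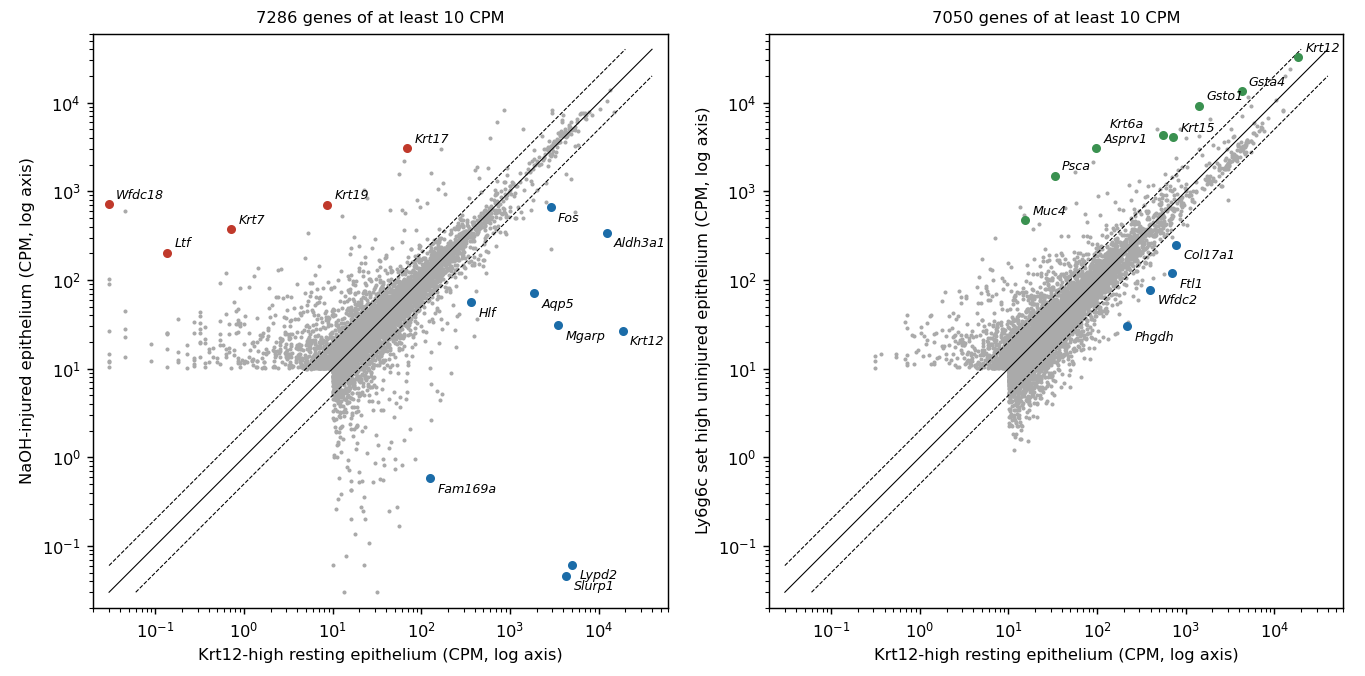
Pooled CPM of each gene in the Krt12-high resting cells (x axis) against the NaOH-injured epithelium (left, y axis) and the Ly6g6c-set-high uninjured epithelium (right, y axis), on log axes with levels under 0.03 CPM drawn at 0.03; the solid line is equality and the dashed lines are 2-fold. Slurp1 and Lypd2 stand at 4332 and 5067 CPM in the Krt12-high resting cells and near 0 in the injured epithelium, while on the right Psca and Asprv1 lie above and Phgdh and Ftl1 below the diagonal.

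Of the 4 groups compared gene by gene, the Nppb-set-high cells had the fewest genes past 2-fold. The cells over the cell cycle limit alone and the epithelium under the Krt12 minimum were not compared in this way. They are uninjured cells with at least 300 CPM of the natriuretic peptide gene Nppb and the matrix metalloproteinase genes Mmp10 and Mmp13. Of 6663 genes, 34 (0.51%) were at least 2-fold higher and 24 (0.36%) at least 2-fold lower in the Krt12-high resting cells. The median log2 ratio over all genes was 0.09; scaling by the median ratio shifted all genes by 0.08 and gave 28 higher and 37 lower, so that the higher share of the called genes was 58.6% with total UMIs and 43.1% with the median ratio. Of the 24 gene lists none had more than 2 members called in either direction.

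Id1, an inhibitor of differentiation induced by BMP signals, stood at 177 CPM in the Krt12-high resting cells against 49.1 CPM in the Nppb-set-high cells, 3.61-fold higher (3.34 to 3.92). Txnip, which binds thioredoxin, stood at 55.9 against 7.91 CPM, 7.06-fold (5.84 to 8.59), and the cytokine signal suppressor Socs3 at 369 against 153 CPM, 2.42-fold. Ifitm1, Krt15 and Gadd45b were 3.20-fold, 2.82-fold and 2.80-fold higher. The 53 Krt15-rich cells held 9817 Krt15 UMIs against 6236 in the other Krt12-high resting cells, and 1308 Ifitm1 UMIs against 1539. In those other 1884 cells Krt15 stood at 293 CPM and Ifitm1 at 72.2 CPM. The Nppb-set-high cells, with no cell left out, had 256 and 40.0 CPM, so neither gene was 2-fold apart without the 53 cells. Dcn also appeared higher, with a log2 ratio of 1.198, which was -1.15 without the 11 Dcn-rich cells. Irf1, Fabp5, Gas1 and Pax6 were 1.60-fold to 1.78-fold higher.

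Genes lower in the Krt12-high resting cells included the prostaglandin synthase Ptgs2, at 34.4 CPM against 115 CPM in the Nppb-set-high cells, 3.34-fold lower (3.06 to 3.64). The EGF receptor ligand Epgn stood at 93.2 against 244 CPM and was 2.62-fold lower. Areg, another ligand of that receptor, stood at 153 against 289 CPM and Nrg1 at 132 against 231 CPM, both short of 2-fold. In the list of EGF receptor ligands and receptors 1 of 10 genes was called lower, with a list median of -0.75 against 0.09 for all genes. Rcan1 and the urokinase receptor gene Plaur were 2.10-fold and 2.02-fold lower, and Snai2, Cxcl1, Ndrg1 and Procr 1.92-fold to 1.99-fold lower.

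The 37 Gpha2-high cells that met the other limits, Krt12 of at least 5000 CPM among them, give a comparison at small depth. It held 22220327 UMIs in the Krt12-high resting cells against 450179 in the Gpha2-high cells. Any Gpha2-high cells with less Krt12 are not in it, so it does not stand for all limbal epithelium. Of 7229 genes 360 (4.98%) were at least 2-fold higher and 469 (6.49%) at least 2-fold lower in the Krt12-high resting cells. The level minimum of 10 CPM is only a few UMIs in the Gpha2-high cells, so many of these calls rest on few counts. Of 1250 genes of at least 100 CPM, 13 (1.04%) were higher and 35 (2.8%) lower. The Krt12-high resting cells had 256 CPM of Apoe against 2397 CPM in the Gpha2-high cells, 9.36-fold lower (8.76 to 9.99). The growth factor binding protein gene Igfbp7 was 9.72-fold lower (7.54 to 12.4), Ifitm1 8.79-fold, Krt17 7.58-fold and the tetraspanin Cd63 7.01-fold. Ly6a, Tmem176b, Ifitm3, Tmem176a and Krt4 were 4.64-fold to 6.53-fold lower. Of 13 measured limbal stem cell related genes 1 was higher and 6 were lower, with a median log2 ratio of -0.66 against 0.01 for all genes. The higher gene was Abcg2, at a log2 ratio of 2.09, which rests on few of the 450179 UMIs of the Gpha2-high cells.

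Of 16 corneal crystallin and surface genes 3 were at least 2-fold higher in the Krt12-high resting cells (Slurp1, Aldh1a1 and Aqp5) and 2 lower (Id1 and Tmem176a), with a median log2 ratio of 0.56. Slurp1 stood at 4332 CPM in the Krt12-high resting cells against 1253 CPM in the Gpha2-high cells, 3.46-fold (3.18 to 3.76), and Aqp5 at 1881 against 904 CPM, 2.08-fold. The protease Tmprss11d, the scaffold Homer2 and the vasoactive peptide Adm were 3.44-fold, 3.20-fold and 3.12-fold higher, and Idi1, Nudt4, Ptgr1 and Gyg 2.13-fold to 2.65-fold higher. Krt14 was 2.38-fold lower at 2957 against 7044 CPM, and Krt15 3.74-fold lower at 722 against 2703 CPM. Dcn was listed as 4.70-fold higher, from 15 UMIs in the Gpha2-high cells, and its log2 ratio was -0.11 without the 11 Dcn-rich cells. With Krt12 of at least 10000 CPM, which left 14 Gpha2-high cells, the log2 ratio of Krt4 was 0.27 in place of -2.21, that of Aqp5 0.44 in place of 1.06, that of Homer2 1.05 in place of 1.68, that of Krt17 -2.11 in place of -2.92 and that of Apoe -3.85 in place of -3.23. Without the highest doublet scores that of Tmprss11d was 2.51 in place of 1.78, and without the Dcn-rich cells that of Cd63 was -3.41 in place of -2.81.

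The NaOH-injured epithelium comprised 5030 cells with the same depth and keratin minimums, the same mitochondrial and cell cycle limits, and no Krt12 minimum. The limits on the Nppb set, the Ly6g6c set and Gpha2 were not applied to them either. Cells rich in those genes, and cells under the Krt12 minimum, were thus left out of the Krt12-high resting cells only. The 340 uninjured epithelial cells under the Krt12 minimum had 2835 CPM of Aldh3a1, 169 CPM of Slurp1 and 486 CPM of Krt19. The part of these limits in the differences was not tested. Median depth was 10569 UMIs in the Krt12-high resting cells against 11304 in the injured epithelium, and the median mitochondrial share 2.18% against 3.67%. Of 7286 genes 500 (6.86%) were at least 2-fold higher and 685 (9.4%) at least 2-fold lower in the Krt12-high resting cells. The libraries differ in mouse, injury and preparation at once, so these cannot be told apart.

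Corneal crystallin and surface genes were the list with the largest median, a log2 ratio of 3.66 against -0.02 for all genes, with 10 of 16 measured members at least 2-fold higher and 3 lower. The list holds the naming markers Aldh3a1, Slurp1 and Tkt and was drawn up with earlier results of these data known. Its rank is therefore a description and not a test. Slurp1 stood at 4332 CPM in the Krt12-high resting cells and was counted 3 times in 65389039 UMIs of the injured epithelium, 0.0459 CPM, a ratio of 94426 (32310 to 457890). Fam169a stood at 125 against 0.581 CPM, 216-fold (157 to 305), and Mgarp at 3483 against 30.7 CPM, 114-fold (109 to 119). Ces1d, a carboxylesterase, was 49.4-fold higher, Homer2 37.0-fold, Aldh3a1 36.3-fold, the photoreceptor guanylate cyclase activator Guca1a 32.6-fold and Fam83a 26.7-fold. Aldh1a1, a further corneal aldehyde dehydrogenase, stood at 48.7 against 2.81 CPM. The 3 lower members of the list were the chaperone clusterin gene Clu (166 against 3023 CPM), Gsto1 (1404 against 5087 CPM) and Tmem176a (61.0 against 620 CPM). In the stromal cells the same direction was seen between the libraries, with Mgarp at 3045 CPM in the uninjured and 447 CPM in the injured stroma and Aldh3a1 at 3690 and 278 CPM.

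The 685 lower genes included keratins and secreted factors. The whey acidic protein gene Wfdc18 had no UMI in the Krt12-high resting cells and 711 CPM in the NaOH-injured epithelium, at least 5269-fold lower with the floor of 3 counts over the group. Sprr2a3, also without a UMI, was at least 753-fold lower. Krt7, a keratin of simple and conjunctival epithelium, stood at 0.720 against 376 CPM, 522-fold lower (321 to 914), and Krt19 at 8.73 against 706 CPM. Uninjured epithelium under the Krt12 minimum had 58.8 CPM of Krt7 and 486 CPM of Krt19, so these keratins also differed within the uninjured library. Against the injured epithelium the EGF receptor ligand Ereg was 94.7-fold lower (67.0 to 139) and the binding protein Igfbp3 189-fold. The actin regulator Cald1 was 83.8-fold and the stromelysin Mmp3 64.1-fold lower. Without the 11 Dcn-rich cells the log2 ratio of Cald1 was -7.92 in place of -6.39 and that of Mmp3 -7.25 in place of -6.002. Markers of other cell types moved with these genes. Mmp3 stood at 5.27 against 337 CPM in the NaOH-injured epithelium and Cald1 at 1.31 against 109 CPM, while the injured stroma held 18577 CPM of Mmp3 and 397 CPM of Cald1. The 7 stromal markers summed to 260 against 752 CPM in the injured epithelium, the 5 neutrophil markers to 19.0 against 144 CPM and the 6 macrophage markers to 7.47 against 57.7 CPM, and their part in the lower genes was not tested. Ppbp, a platelet chemokine, had 1 UMI and the lactoferrin gene Ltf 3 UMIs in the Krt12-high resting cells, against 599.6 and 202 CPM in the injured epithelium. Of 16 cytokine and alarmin genes 9 were lower and none higher (median -1.99), of 9 angiogenesis-related secreted genes 6 lower and none higher (median -2.51), and of 15 suprabasal and cornified envelope genes 10 lower and 1 higher (median -1.71).

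Genes of basal attachment did not separate the uninjured and injured cells as a group. Of 18 basal layer and hemidesmosome genes 2 were higher and 4 lower, with a median log2 ratio of -0.02. Col17a1 was 2.23-fold higher, at 777 CPM in the Krt12-high resting cells against 349 CPM, and the cyclin Ccnd1 2.65-fold, at 395 against 149 CPM, whereas Krt15 stood at 722 against 6070 CPM and the laminin chain Lamb3 at 30.7 against 88.8 CPM. Itgb4, at 168 against 161 CPM, and Itga6, at 347 against 350.4 CPM, lay near 1. Of 24 corneal transcription factor genes 3 were higher (Pax6 2.55-fold, Sox15 2.63-fold and Id3) and 2 lower (Tfap2b and the homeobox gene Barx2, at 2.30 against 64.3 CPM), while Klf4 stood at 671 against 742 CPM and Klf5 at 369.7 against 449 CPM.

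Of 18 measured immediate early genes, which respond to signals within minutes, 8 were at least 2-fold higher and none lower in the Krt12-high resting cells, with a median log2 ratio of 0.83. Zfp36, which degrades inflammatory messages, stood at 533 against 119 CPM in the injured epithelium, 4.47-fold (4.34 to 4.60), Fos at 2867 against 657 CPM, 4.36-fold, and Jun at 2525 against 1225 CPM, 2.06-fold. In the stromal cells Fos stood at 5208 CPM in the uninjured and 2277 CPM in the injured library, Zfp36 at 687 and 437 CPM, and Jun at 1537 and 1683 CPM; their part in the result was not tested. Within the population Fos varied between cells, with a 10th percentile of 456 CPM and a 90th of 5652 CPM, and its r was 0.44 with Jun and -0.03 with Krt12.

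Counts in the other lists stand beside 6.86% higher and 9.4% lower over all genes. Of 10 clock genes 3 were higher in the Krt12-high resting cells (Arntl, Nr1d1 and Hlf) and none lower; Hlf, a PAR bZIP factor, stood at 363 against 55.7 CPM in the injured epithelium, 6.52-fold (6.26 to 6.78), and at 146 and 34.1 CPM in the uninjured and injured stroma. In the antioxidant and glutathione list 5 of 29 genes were higher (Gsta4, Nqo1, Prdx6, Mt1 and Mt2) and 5 lower. Mt1 stood at 4836 against 1382 CPM in the injured epithelium, 3.50-fold, with the reverse in the stroma, 717 CPM uninjured and 2262 CPM injured. In the aldehyde dehydrogenase and retinoid list 3 of 11 genes were higher and 4 lower; the retinoic acid hydroxylase Cyp26b1 and the retinol dehydrogenase Adh7 were 3.16-fold and 2.32-fold higher, whereas the retinaldehyde dehydrogenase Aldh1a3 was 4.46-fold lower. Of 14 glycolysis genes 2 were lower and none higher, near the share over all genes, with a median log2 ratio of -0.57.

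**Figure D5:**
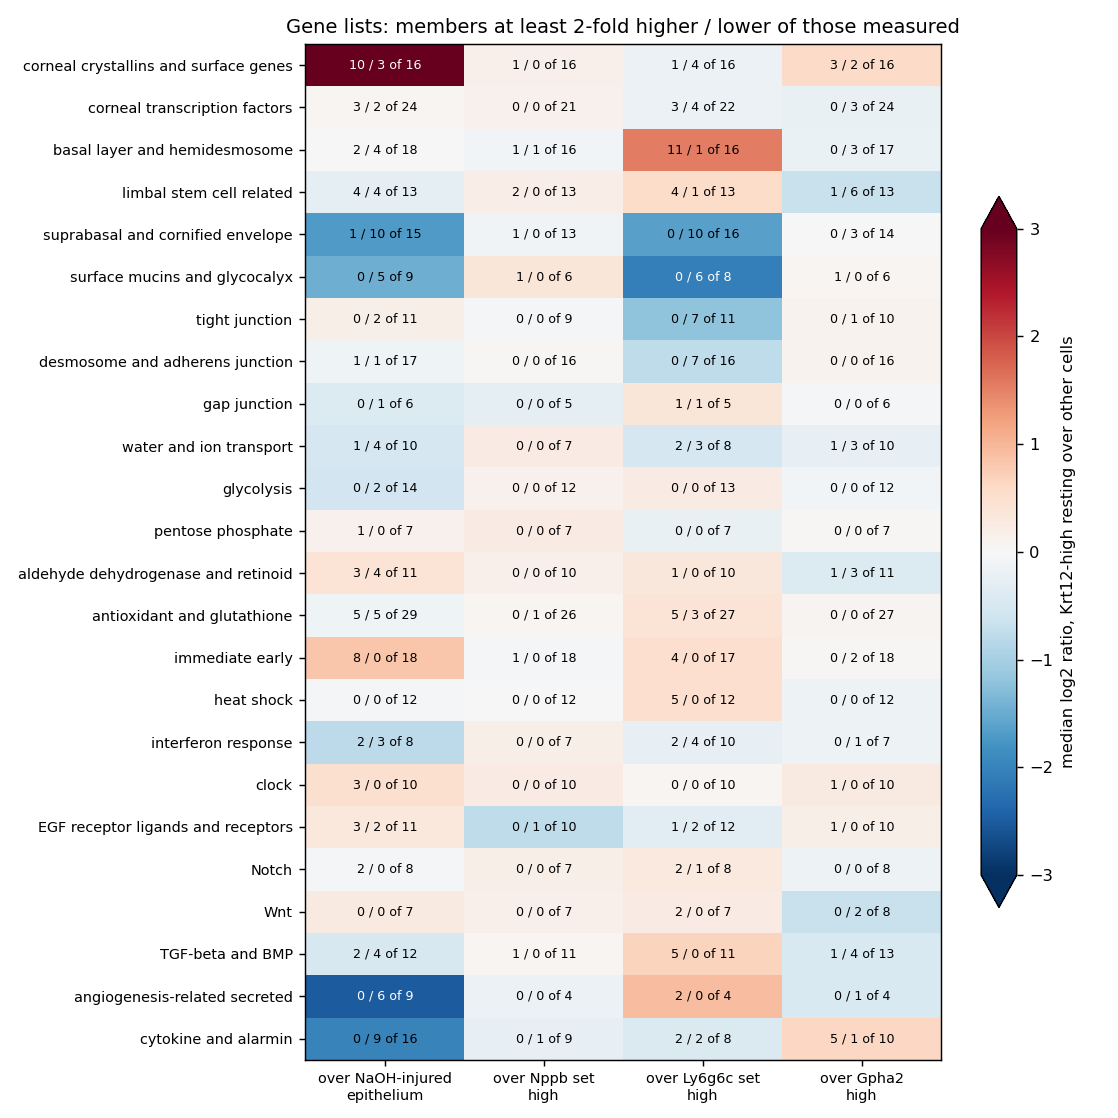
Median log2 ratio of each of 24 gene lists (rows), Krt12-high resting cells over each of 4 groups of cells (columns), as colour, with the number of genes at least 2-fold higher, at least 2-fold lower and measured printed in each cell. Against the Ly6g6c-set-high cells the basal list is at 1.53 and the mucin list at -2.06, and against the Nppb-set-high cells no list has more than 2 genes called in a direction.

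Against the NaOH-injured epithelium none of 12 heat shock and none of 7 Wnt genes passed 2-fold in either direction, and of 8 Notch genes 2 were higher, Dll1 and Notch3. Of 17 desmosome and adherens junction genes 1 was higher and 1 lower, and of 11 tight junction genes none was higher and 2 were lower. Of 11 EGF receptor ligand and receptor genes 3 were higher, Nrg1 (3.60-fold), Epgn (2.03-fold) and Lrig1, and 2 lower, Areg (6.97-fold) and Ereg. Of 12 TGF-beta and BMP genes 2 were higher, among them the receptor gene Tgfbr1 at 85.7 against 28.5 CPM, and 4 lower, among them the activin antagonist Fst at 22.9 against 156 CPM.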

How the data were processed

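Per the labels, single cells of 1 uninjured and 1 NaOH-injured wild-type mouse cornea with limbus were sequenced. The deposited matrices hold UMI counts per gene and barcode, which Cell Ranger produced (version 7.0.1, per the file headers) on the GRCm38 build (per the submitters' processing notes). They are raw counts of 32285 genes, with 85457541 UMIs in the uninjured and 108863350 UMIs in the injured library. No label used here names the chemistry version. Of the Ensembl IDs, 32158 matched GENCODE M21.

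The members and the 24 gene lists were chosen with earlier results of these data known. UMIs were summed over the cells of each group and scaled to CPM; a ratio was computed with sums under 3 UMIs set to 3, and a gene of at least 10 CPM in either group and at least 2-fold apart was counted as higher or lower. Correlations, quartile bins and overdispersion used cells thinned to 5000 UMIs with a fixed seed. Doublets were not removed: the automatic Scrublet limit marked 34 and 2 barcodes (0.454% and 0.0213%), so it did not work, and barcodes with the highest scores at an assumed rate of 0.8% per 1000 barcodes (127 of the 1937 cells) were left out as an alternative. The computation of ratios was checked on simulated Poisson counts with known fold changes, at the depth of the injured comparison. The simulation held no spread between cells, free RNA or doublets, so it does not bear on those. Named genes were the naming markers, the 20 most abundant, the 10 largest ratios per direction and comparison among genes of at least 100 CPM (without selecting, mitochondrial, ribosomal, hemoglobin, sex-dosage and predicted genes), list members of at least 50 CPM, the 15 most overdispersed and the 10 highest and lowest correlations with Krt12; the S-phase genes and other genes of the Krt15-rich cells were chosen after their values were seen. Python 3.11.15, numpy 2.4.6, scipy 1.17.1, pandas 2.3.3, scanpy 1.11.5 and matplotlib 3.10.9 were used. A few genes that the naming rule picked are not reported here.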

Additional observations from a re-analysis of the deposited data

How the results depend on the processing

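Of 3504 gene ratios recomputed under alternatives 2969 stayed within their counting interval, 37 moved by over 1.5 times, and 4 that were at least 2-fold changed sign. These were Dcn against the Nppb-set-high cells, at log2 -0.15 without the highest doublet scores and -1.15 without the 11 Dcn-rich cells, Dcn against the Gpha2-high cells, at -0.11 without those 11 cells, and Krt4 against the Gpha2-high cells, at 0.27 with Krt12 of at least 10000 CPM, which left 14 Gpha2-high cells. With no level filter, the counts higher and lower were 5881 and 2629 against the NaOH-injured epithelium, 738 and 295 against the Nppb-set-high cells, 1975 and 1438 against the Ly6g6c-set-high cells, and 360 and 8343 against the Gpha2-high cells. Sums under 3 UMIs are set to 3, a different CPM in 22220327 UMIs of the Krt12-high resting cells than in 65389039 of the injured epithelium or 450179 of the Gpha2-high cells. A gene at that floor in both is called by construction, higher against the injured epithelium and lower against the Gpha2-high cells, so these 2 pairs of counts follow depth and are not read as differences in expression. With genes of at least 100 CPM they were 98 and 106, 6 and 8, 75 and 174, and 13 and 35. Fewer genes were compared, and the shares moved too, to 7.33% and 7.93%, 0.489% and 0.651%, 5.36% and 12.4%, and 1.04% and 2.8% of the genes compared. Against the Nppb-set-high cells 37 genes were lower with scaling by the median ratio and 47 without cells holding 4 or more S-phase genes, which left 1276 Krt12-high resting cells. Against the Gpha2-high cells 198 were higher and 1336 lower with Krt12 of at least 10000 CPM. Leaving out the Dcn-rich or S-phase cells was added after seeing the data. Apart from the floor and the fewer genes and cells, the cause was not tested. No paired analysis was possible because each condition has 1 library and the labels give no replicate numbers. Depth limits the Gpha2 comparison most, with 37 cells.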
